A study of Mus musculus with 34 samples.

Results

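DKI T cells were compared with CD28 KO T cells 72 h after stimulation. The comparison rests on 5 of the 34 libraries of the series, namely the 3 labelled DKI and the 2 labelled CD28 KO at day 3, picked by genotype and day and not by any measured value. All libraries came from C57BL/6 mice aged 6 to 12 weeks, from T cells of the spleen enriched by negative selection, and the RNA was sequenced after removal of ribosomal RNA. Both genotypes were stimulated alike, with antibodies against CD3 and CD28 and with recombinant IL-2. Set beside them are the 3 DKI and 2 CD28 KO libraries taken at 24 h and the 2 WT libraries taken at 72 h. The design text writes DKI as CD28 DKI, and neither it nor the labels say which changes that allele carries, which part of the gene the CD28 KO allele lacks, or whether mice were pooled. It calls the replicates biological.

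CD28 is a costimulatory receptor of T cells: its signal adds to that of the antigen receptor and promotes survival, growth and IL-2 production. It binds CD80 and CD86 on antigen-presenting cells, and short motifs of its tail bind PI3K, GRB2 and LCK. CTLA-4 competes for the same ligands and restrains activation, and ICOS is a related receptor that T cells gain once activated. The 3 genes lie next to each other on chromosome 1.

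Depth differed with the genotype. DKI libraries at 72 h held 9.79, 10.6 and 10.6 M counts, against 27.3 and 23.8 M in CD28 KO libraries. Under 12 M were 8 libraries of the series: the 6 of DKI and 1 WT library at each of 24 h and 72 h, and no label names this depth batch. Between DKI and CD28 KO, genotype and depth batch cannot be told apart; a fit with the batch as a term borrows its size from the WT libraries, 1 on each side per time. By Xist and Y-linked genes, all DKI libraries were male, while the CD28 KO libraries at 72 h were female (number 1, by column) and male (number 2). Levels below are CPM, counts relative to the total of the library and scaled with edgeR's TMM factors.

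Few genes differed at 72 h. Of 18292 genes tested, 83 (0.454%) passed an adjusted p under 0.05 in edgeR's quasi-likelihood test with Benjamini-Hochberg adjustment, 40 of them (0.219% of tested genes) higher and 43 (0.235%) lower in DKI, and 60 of them protein-coding. At an unadjusted p under 0.05 there were 2244 genes (12.3%). The number of calls differed between fits. It was 1765 with the 5 libraries alone (13814 genes tested), 16 with the day 3 libraries (16668 genes tested), 30 with the depth batch as a term, and 15 without CD28 KO number 2, when the lone CD28 KO library is assumed to vary like the other groups. A group of 7 genes passed in the same direction under all 14 alternatives, and all 7 lie on chromosome 1: Ctse, Rnpep, Wdfy1, Ube2t, Gpr55, Rbm44 and Lct. One of the alternatives tests protein-coding genes only, and 3 genes that are not protein-coding passed the other 13: Gm25939 and 6820402A03Rik on chromosome 1, and the lincRNA gene 5830416I19Rik on chromosome 5. The last had 1.72, 2.35 and 3.05 CPM in DKI libraries, against 0.144 and 0.123 CPM in CD28 KO libraries and 2.45 and 4.38 CPM in WT libraries (log2 fold change 4.10, SE 0.58, edgeR adjusted p = 2.7e-04).

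**Figure D1:**
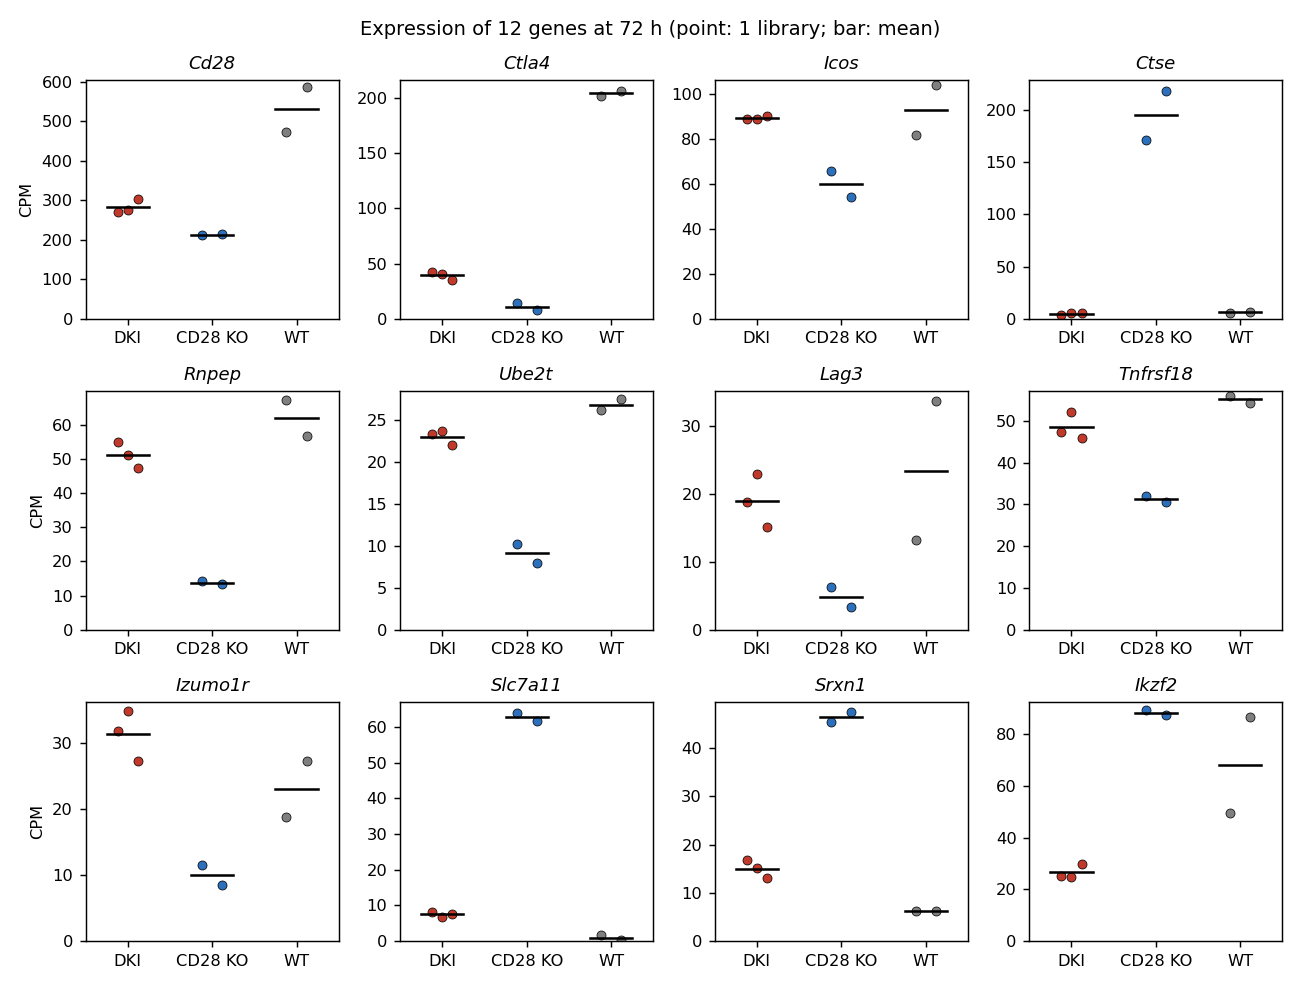
CPM of 12 genes at 72 h in the 3 DKI, 2 CD28 KO and 2 WT libraries, each point 1 library and each bar a group mean. CD28 KO libraries stand apart from DKI and WT for Ctse, Rnpep, Ube2t, Slc7a11 and Srxn1, whereas Ctla4 in DKI lay between CD28 KO and WT.

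Cd28 itself (ENSMUSG00000026012.2, GRCm38 chromosome 1, 60716800 to 60773359) held 270, 276 and 304 CPM in DKI libraries, against 212 and 214 CPM in CD28 KO libraries and 474 and 587 CPM in WT libraries. The 2 genotypes did not overlap, and both lay below WT. The log2 fold change of 0.41 (SE 0.16, 95% interval 0.09 to 0.73) did not pass (edgeR adjusted p = 0.29). Counts were taken over the whole gene, so transcript left from outside a deleted part would be counted, and the values check neither label. Ctla4 (60887000 to 60915832) had 42.3, 40.6 and 35.1 CPM in DKI libraries, against 13.8 and 7.49 CPM in CD28 KO libraries and 202 and 207 CPM in WT libraries. Every DKI library was above every CD28 KO library and far below WT. Ctla4 was called higher in DKI (log2 fold change 1.88, SE 0.43, edgeR adjusted p = 0.046), but close to the threshold, and it stayed called under 5 of 14 alternatives, with an adjusted p of 0.63 without CD28 KO number 2. Icos, which follows Ctla4 on the chromosome, had 88.9, 88.9 and 90.0 CPM in DKI libraries, against 65.8 and 54.2 CPM in CD28 KO libraries and 81.8 and 104 CPM in WT libraries. DKI values lay within the WT range. The log2 fold change of Icos was 0.57 (SE 0.14, edgeR adjusted p = 0.060).

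The series title also names Pkm splicing and the cap-binding complex. Pkm, the gene of pyruvate kinase, had 1046, 1006 and 948 CPM in DKI libraries, against 892 and 876 CPM in CD28 KO libraries and 1775 and 819 CPM in WT libraries. Its log2 fold change was 0.18 (edgeR adjusted p = 0.83) and 0.97 with the depth batch as a term (adjusted p = 0.17), and the forms made by its alternative exons are not separated in these gene counts. Srrt, which encodes the cap-binding partner ARS2, gave a log2 fold change of -0.0010 (SE 0.23), and its sign turned under 7 of the 14 alternatives, none of them past the threshold. None of 21 tested members of the list of cap-binding and ARS2 partners was called in edgeR, DESeq2 or limma-voom, and 1 had an unadjusted p under 0.05 in edgeR. The median of the list was 0.08 on the log2 scale, with 18 of 21 positive, and 0.36 with the depth batch as a term, with 21 of 21 positive.

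Chromosome 1, which carries Cd28, held 28 of the 83 called genes (33.7%), while 7.18% of the tested genes lie on it. Of its 1314 tested genes 2.13% were called, against 0.324% of the genes elsewhere, and chromosome 5 came next with 7 calls. The called genes started between 51.5 and 156.7 Mb, from 9.21 Mb before the start of Cd28 to 95.9 Mb after it. This span, set by the first and the last call, held 706 of the tested genes, and 608 tested genes of the chromosome lie outside it. Of the 28 genes, 20 were higher in DKI and 8 lower, whereas elsewhere 20 were higher and 35 lower. The share of calls on chromosome 1 was 36.7% with the depth batch as a term, 56.3% with the day 3 libraries alone, and 9.29% among the 1765 calls of the 5 libraries alone, where 6.82% of tested genes lie on it.

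**Figure D2:**
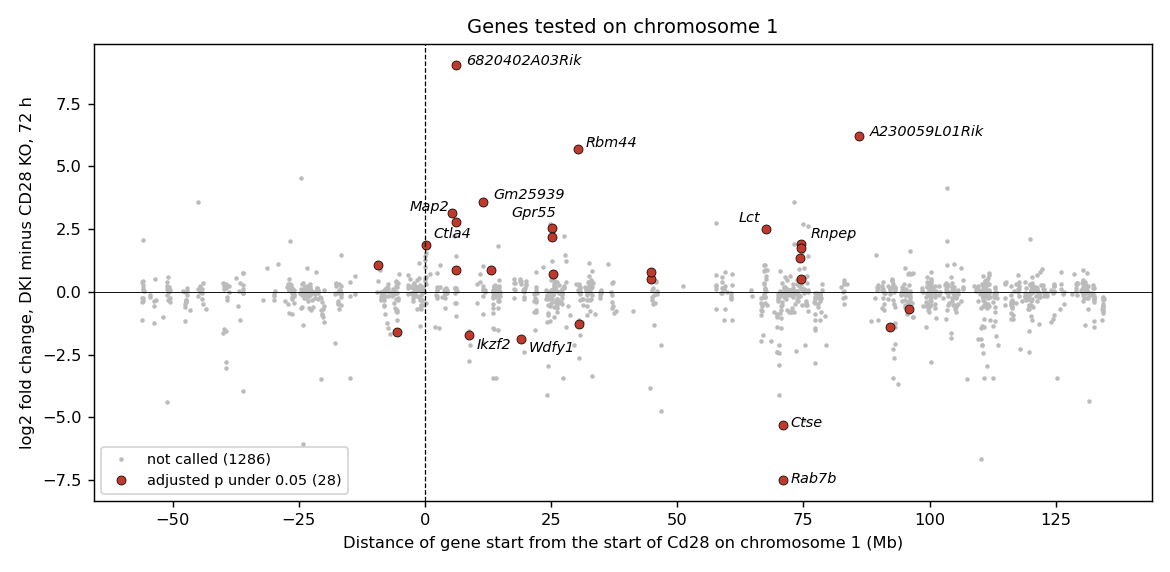
Log2 fold change (DKI minus CD28 KO, 72 h) of the 1314 tested genes of chromosome 1 against the distance of their start from that of Cd28 in Mb, with the 28 called genes in red. Calls run from 9.21 Mb before Cd28 to 95.9 Mb after it, with both directions along the way.

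The call with the smallest p was Ctse (131638306 to 131675505), the gene of cathepsin E, an aspartic protease of endosomes. It had 3.85, 5.18 and 5.74 CPM in DKI libraries, against 172 and 219 CPM in CD28 KO libraries and 5.85 and 5.95 CPM in WT libraries. DKI was close to WT, and both CD28 KO libraries stood far above. The log2 fold change was -5.30 (SE 0.21, edgeR adjusted p = 4.2e-15), and it ranged from -5.47 to -5.12 as single libraries were left out. Rnpep (135262712 to 135284084), the gene of aminopeptidase B, which trims basic residues from peptides, showed the opposite. It had 55, 51.0 and 47.4 CPM in DKI libraries, against 14.4 and 13.3 CPM in CD28 KO libraries and 67.2 and 56.7 CPM in WT libraries, with a log2 fold change of 1.89 (SE 0.15, edgeR adjusted p = 1.3e-08). Ube2t, a ubiquitin-conjugating enzyme of the Fanconi anaemia repair pathway, had 23.3, 23.6 and 22 CPM in DKI libraries, against 10.2 and 7.95 CPM in CD28 KO libraries and 26.1 and 27.4 CPM in WT libraries. For both genes CD28 KO was the genotype away from WT.

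Gpr55, a receptor for lysophosphatidylinositol, had 13.6, 17.6 and 15.4 CPM in DKI libraries, against 3.77 and 1.52 CPM in CD28 KO libraries and 21.6 and 19.4 CPM in WT libraries. Gm28884, an antisense gene that ends shortly before Gpr55, was called in the same direction, as was Gm26642, an antisense gene that overlaps Rnpep. The kit marks strand, but the strand setting of the counting is not given in the sources used here, so reads of Rnpep and Gm26642 may not be separate. Wdfy1, an adaptor of endosomal membranes, had 6.89, 7.25 and 6.57 CPM in DKI libraries, against 25.3 and 26.0 CPM in CD28 KO libraries and 15.0 and 19.1 CPM in WT libraries. Here WT lay between, and neither genotype matched it. Rbm44, an RNA-binding protein known from germ cells, and Lct, the lactase gene, were higher in DKI at low levels: Rbm44 had 3.04, 8.38 and 7.22 CPM in DKI libraries, against 0.0719 and 0.164 CPM in CD28 KO libraries, and Lct had 1.93, 1.22 and 2.13 CPM in DKI libraries, against 0.323 and 0.287 CPM in CD28 KO libraries. WT libraries held 6.11 and 5.53 CPM of Rbm44 and 1.29 and 1.36 CPM of Lct.

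Called genes lay close together in places. From the start of Map2 to that of Gm15793, a stretch of 0.674 Mb, 4 of 14 tested genes were called, all higher in DKI. Acadl, the long-chain acyl-CoA dehydrogenase of fatty acid oxidation, was the most abundant of them, with 67.4, 67.8 and 66.2 CPM in DKI libraries, against 38.1 and 35.3 CPM in CD28 KO libraries and 98.6 and 87.4 CPM in WT libraries (log2 fold change 0.87, SE 0.17, edgeR adjusted p = 0.016). The call of Acadl was lost without either CD28 KO library, without DKI number 2 and with the day 3 libraries alone. With the depth batch as a term its log2 fold change was 1.07 and not called (adjusted p = 0.071). As single libraries were left out, the log2 fold change of Acadl ranged from 0.82 to 0.93. Gm15793 is a processed pseudogene that lies within Acadl, so their reads may be divided. In the same stretch 6820402A03Rik, a transcript of no known function, had 96 counts over the DKI libraries and 0 over the CD28 KO libraries, which makes it at least 52.8-fold higher in DKI against a floor of 3 counts over the group. From the start of Ctse to that of Rnpep, 3.62 Mb, 6 of 60 tested genes were called, 2 lower and 4 higher in DKI. Rab7b, a small GTPase of late endosomes that starts just after Ctse ends, had 0 counts over the DKI libraries and 53 over the CD28 KO libraries, at least 10.7-fold lower in DKI by the same floor. The 2 CD28 KO libraries were unequal, with 0.467 CPM in number 1 and 1.64 CPM in number 2. Rab7b stayed called under 6 of 14 alternatives. It was lost with limma-voom, with the depth batch as a term, with the 5 libraries alone and with the day 3 libraries alone. Both stretches were marked out after the values were seen.

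The remaining called genes of the chromosome varied in kind. Ikzf2, which encodes the transcription factor Helios, had 25.2, 24.8 and 29.9 CPM in DKI libraries, against 89.4 and 87.6 CPM in CD28 KO libraries and 49.5 and 86.6 CPM in WT libraries. DKI was the lowest of the 3 genotypes. Its log2 fold change of -1.73 (SE 0.31, edgeR adjusted p = 0.0058) became -2.43 with the depth batch as a term and was still called there, but it was lost without either CD28 KO library (adjusted p = 0.079 without number 2). Ptpn7, a phosphatase that acts on MAP kinases in T cells, was higher in DKI by a log2 fold change of 0.52, Pign, which helps to build GPI anchors, by 0.50, and Tns1, a tensin of focal adhesions, by 0.88. Ramp1, which partners the receptor of calcitonin gene-related peptide, was lower by -1.29, and Tor3a, an ATPase of the torsin family, by -0.69. Without CD28 KO number 2, Ptpn7, Pign, Tns1 and Tor3a were not called (adjusted p from 0.12 to 0.51), and Ramp1 was lost without another of the libraries (adjusted p = 0.060).

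Gm25939 (ENSMUSG00000093843.1), annotated as a small nuclear RNA gene, gave the strongest call of the chromosome after Ctse and Rnpep among those named, with 34.8, 28.5 and 37.4 CPM in DKI libraries, against 2.62 and 2.95 CPM in CD28 KO libraries and 74.6 and 41.5 CPM in WT libraries. Its log2 fold change was 3.59 (SE 0.33, edgeR adjusted p = 2.7e-07) and became 4.31 with the depth batch as a term. The RNA is printed from GENCODE M21 because part of it recurs in other genes: the 113 bases in capitals lie in stretches of 100 bases that are shared with 3 other annotated genes. Its 191 bases lie on the plus strand at chr1:72255008-72255198 of GRCm38.
Gm25939: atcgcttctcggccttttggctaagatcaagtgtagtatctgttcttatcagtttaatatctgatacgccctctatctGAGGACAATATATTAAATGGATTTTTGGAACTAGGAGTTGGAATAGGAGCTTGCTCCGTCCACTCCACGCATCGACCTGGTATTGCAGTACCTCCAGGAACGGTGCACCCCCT
The capitals fill the end of the RNA, so reads from that end could be divided between copies. Only exact matches of 100 bases were marked, and shorter or inexact copies of the rest were not searched for. The level of this gene is therefore uncertain.

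Over all 83 called genes, both CD28 KO libraries lay outside the range of all 14 other libraries of 72 h in 50 genes, where 6.49% of all tested genes do so. The 3 DKI libraries lay outside the range of the 13 others in 11 genes, where 2.01% of all tested genes do so. On chromosome 1 the counts were 20 and 4 of 28 genes. Of the same 83 genes, both CD28 KO libraries of 24 h lay outside the other libraries of that time in 18 of 28 on chromosome 1 and 26 of 55 elsewhere (32.0% of all tested genes), and the 3 DKI libraries of 24 h in 2 and 1 (2.42%). The 72 h calls were made from the 72 h libraries, so their counts describe where the calls come from and are no separate test.

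Away from chromosome 1, the genes called higher in DKI included Lag3, Tnfrsf18 and Tnfrsf4, which encode receptors of activated T cells. In the list of TNF receptor costimulators and ligands, 2 of 15 members were called, both higher, 6 had positive values, and the median log2 fold change was -0.04. Tnfrsf11b, a TNF receptor family gene outside that list, was called lower (log2 fold change -2.90, edgeR adjusted p = 0.040) at levels under 2 CPM. Lag3 (chromosome 6, 124904361 to 124911705), an inhibitory receptor that binds MHC class II, had 18.7, 22.9 and 15.2 CPM in DKI libraries, against 6.36 and 3.40 CPM in CD28 KO libraries and 13.2 and 33.6 CPM in WT libraries. The DKI values lay within the range of WT and above both CD28 KO libraries. Its log2 fold change was 1.95 (SE 0.39, edgeR adjusted p = 0.017), but with the depth batch as a term it was 0.77 and no longer called (adjusted p = 0.30), and it was lost without CD28 KO number 2 (adjusted p = 0.45). Tnfrsf18, which encodes the costimulatory receptor GITR, had 47.3, 52.1 and 45.9 CPM in DKI libraries, against 32.1 and 30.7 CPM in CD28 KO libraries and 55.9 and 54.4 CPM in WT libraries (log2 fold change 0.63, SE 0.10, edgeR adjusted p = 9.4e-04). It stayed called under 12 of 14 alternatives, and was lost with the depth batch as a term (adjusted p = 0.097) and without CD28 KO number 2 (adjusted p = 0.086). Tnfrsf4, its neighbour on chromosome 4, encodes OX40 and had 15.4, 16.3 and 13.4 CPM in DKI libraries, against 8.05 and 7.13 CPM in CD28 KO libraries and 13.6 and 13.5 CPM in WT libraries. Its log2 fold change was 0.98 (SE 0.21, edgeR adjusted p = 0.030), and 6 of 14 alternatives kept the call, with an adjusted p of 0.45 without CD28 KO number 2.

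Izumo1r, the folate receptor 4 of CD4 T cells, had 31.7, 34.8 and 27.2 CPM in DKI libraries, against 11.5 and 8.44 CPM in CD28 KO libraries and 18.8 and 27.2 CPM in WT libraries (log2 fold change 1.65, SE 0.33, edgeR adjusted p = 0.018). Igfbp4, a secreted binding protein of insulin-like growth factors, had 112, 143 and 101 CPM in DKI libraries, against 34.3 and 34.1 CPM in CD28 KO libraries and 111 and 63.6 CPM in WT libraries. Ecm1, an extracellular matrix protein, had 36.8, 44.7 and 34.9 CPM in DKI libraries, against 12.9 and 9.79 CPM in CD28 KO libraries and 14.1 and 22.9 CPM in WT libraries. Ecm1 was thus higher in DKI than in WT as well, while the DKI and WT ranges of Igfbp4 overlapped. With the depth batch as a term the log2 fold change of Ecm1 was 0.82, against 1.77 (SE 0.34, edgeR adjusted p = 0.014) without the term, and that of Igfbp4 was 2.05, against 1.79 (SE 0.35, edgeR adjusted p = 0.016), neither called with the term. Also called higher were Synpo, which encodes the actin-binding protein synaptopodin (log2 fold change 1.91), Mid1, a ubiquitin ligase of microtubules (1.59, with 12.4% of its 100-base stretches shared with other genes), Ptprs, a receptor phosphatase (1.00), and Tesc, a calcium-binding protein (0.90). Every DKI library was above both CD28 KO libraries for each of these genes, which the rule for named genes required. All 7 genes of this paragraph were lost without CD28 KO number 2 (adjusted p from 0.24 to 0.53).

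The sum of the CD4 T cell markers was higher in DKI, in part through the receptors above. Over 8 CD4 markers, without TMM scaling, DKI libraries held 278, 303 and 276 CPM, against 209 and 230 CPM in CD28 KO libraries and 265 and 339 CPM in WT libraries, and 2 of the 8, Izumo1r and Tnfrsf4, were called higher. Of the 8 log2 fold changes 5 were positive and 3 negative, and with the depth batch as a term 3 were positive, at a median of -0.08, with 0 called. Cd4 itself had 64.8, 72.3 and 65.5 CPM in DKI libraries, against 40.0 and 46.2 CPM in CD28 KO libraries and 111 and 140 CPM in WT libraries, at a log2 fold change of 0.65 (edgeR adjusted p = 0.40). The sum over 8 CD8 markers was 1553, 1596 and 1540 CPM in DKI libraries, against 1472 and 1494 CPM in CD28 KO libraries. In bulk RNA, fewer cells of a type and less RNA per cell cannot be told apart, and the part of the CD4 share in the receptor differences was not tested. Foxp3, the defining factor of regulatory T cells, had 8.71, 8.57 and 5.64 CPM in DKI libraries, against 8.37 and 11.8 CPM in CD28 KO libraries. Of 16 tested genes of the regulatory T cell list, 3 were called higher in DKI (Ctla4, Tnfrsf18 and Izumo1r) and 1 lower (Ikzf2), at a median log2 fold change of 0.44 where all tested genes had -0.01. The median was 0.11 with the depth batch as a term (8 of 16 positive, Ikzf2 alone called, lower), 0.15 without CD28 KO number 2 (0 called) and 0.22 without DKI number 2.

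Among the genes lower in DKI away from chromosome 1, Slc7a11 and Srxn1 had the largest differences by the rule for named genes. Slc7a11 (chromosome 3, 49892526 to 50443614) is the subunit of the cystine-glutamate exchanger that brings in cystine for glutathione synthesis, and Srxn1 (chromosome 2, 152105516 to 152111376) encodes sulfiredoxin, which restores oxidised peroxiredoxins. Slc7a11 had 8.21, 6.69 and 7.68 CPM in DKI libraries, against 63.9 and 61.8 CPM in CD28 KO libraries and 1.59 and 0.313 CPM in WT libraries. The order of the levels was CD28 KO, DKI, WT, with no overlap. The log2 fold change was -3.06 (SE 0.57, edgeR adjusted p = 0.0090), and with the depth batch as a term it was -1.67 and not called (adjusted p = 0.51). Srxn1 had 16.7, 15.1 and 13 CPM in DKI libraries, against 45.4 and 47.5 CPM in CD28 KO libraries and 6.15 and 6.16 CPM in WT libraries, in the same order. Its log2 fold change was -1.64 (SE 0.32, edgeR adjusted p = 0.014), and with the depth batch as a term it was -1.47 and not called (adjusted p = 0.14). With the day 3 libraries alone neither gene was called. Both calls were lost without either CD28 KO library (without number 2, adjusted p = 0.11 for Slc7a11 and 0.21 for Srxn1) and without DKI number 2, and that of Srxn1 without DKI number 3 as well. Over these fits the log2 fold change ranged from -3.13 to -2.98 for Slc7a11 and from -1.73 to -1.55 for Srxn1.

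Other genes known as targets of the antioxidant factor NRF2, chosen after their values were seen, did not pass in edgeR, and 1 of them, Gclm, passed narrowly in limma-voom (adjusted p = 0.0497). Nqo1, a quinone reductase, had 25.1, 23.4 and 23.9 CPM in DKI libraries, against 52.8 and 42.9 CPM in CD28 KO libraries and 15.1 and 9.81 CPM in WT libraries (edgeR adjusted p = 0.21). Gclm and Gclc, the subunits of glutamate-cysteine ligase, had log2 fold changes of -0.72 (adjusted p = 0.055) and -0.45 (adjusted p = 0.12) by the same test. Hmox1, which encodes haem oxygenase, had -1.25 (adjusted p = 0.17). Txnrd1 and Gsr, reductases of thioredoxin and glutathione, had -0.36 and -0.37, and both signs turned with the depth batch as a term, to 0.28 and 0.23.

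The promoters of Slc7a11 and Srxn1 are shown because they hold letter matches to elements known to answer amino acid shortage and oxidative stress. They come from RefSeq (GRCm38.p6) and run from 250 bases before to 50 bases after the gene start, 300 bases each. Capitals mark TGAGTCA or its reverse complement TGACTCA in Srxn1, the element of AP-1 factors that also forms the core of many antioxidant response elements, and TGATGNAA on either strand in Slc7a11, the core of the element bound by ATF4. The Srxn1 window is on the plus strand at chr2:152105274-152105573, and the Slc7a11 window on the minus strand at chr3:50443564-50443863.
Srxn1: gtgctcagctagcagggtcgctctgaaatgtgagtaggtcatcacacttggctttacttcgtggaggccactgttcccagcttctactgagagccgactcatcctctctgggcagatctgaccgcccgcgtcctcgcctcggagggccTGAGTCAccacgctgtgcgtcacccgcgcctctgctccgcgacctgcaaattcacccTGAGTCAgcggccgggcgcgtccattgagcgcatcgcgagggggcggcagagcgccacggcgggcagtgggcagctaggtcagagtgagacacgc
Slc7a11: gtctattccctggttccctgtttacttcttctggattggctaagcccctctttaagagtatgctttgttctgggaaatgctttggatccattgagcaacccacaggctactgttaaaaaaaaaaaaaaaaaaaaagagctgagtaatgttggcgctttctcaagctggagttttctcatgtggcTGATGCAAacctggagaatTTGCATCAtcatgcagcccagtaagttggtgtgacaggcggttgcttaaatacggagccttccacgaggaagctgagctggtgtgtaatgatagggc
Srxn1 holds 2 TGAGTCA, 102 and 45 bases before the start, and no TGATGNAA. Slc7a11 holds 2 TGATGNAA, 66 and 47 bases before the start and on opposite strands, and no TGAGTCA. Of all 32851 mouse promoters in the same table, 5.2% hold TGAGTCA and 3.97% hold TGATGNAA on either strand. A match of letters is a description and not a site.

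Further genes called lower in DKI were of several kinds. Of 18 helper lineage factors 1, Rora, was called, at a list median of -0.07. Rora, the nuclear receptor ROR alpha, had 15.6, 16.2 and 18.5 CPM in DKI libraries, against 41.1 and 37.4 CPM in CD28 KO libraries and 23.9 and 30.3 CPM in WT libraries (log2 fold change -1.23, SE 0.22, edgeR adjusted p = 0.0060). DKI was the lowest genotype. Rora stayed called under 12 of 14 alternatives, the depth batch term among them, and was lost without either CD28 KO library (adjusted p = 0.060 without number 2). Gpr183, the oxysterol receptor EBI2 that guides cells within lymphoid tissue, had 27.9, 31.5 and 28.8 CPM in DKI libraries, against 42.5 and 57.1 CPM in CD28 KO libraries and 48 and 53.4 CPM in WT libraries. Txk, a Tec family kinase, was lower by a log2 fold change of -0.43, Kif1b, a kinesin, by -0.73, Akap8l, a nuclear scaffold protein, by -0.71, and Snord17, a small nucleolar RNA, by -1.25. Entpd4 and Entpd4b, Golgi nucleotidases, were lower by -0.75 and -0.82, but the 2 genes share 100% of their 100-base stretches, so they count as 1 signal of uncertain division. Without CD28 KO number 2 the calls of Gpr183, Txk, Kif1b, Akap8l and Snord17 were lost (adjusted p from 0.38 to 0.73), while Entpd4 and Entpd4b stayed called; both were lost with the depth batch as a term (adjusted p = 0.069 and 0.065), and Entpd4b with the day 3 libraries alone.

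A few called genes are best known from B cells or NK cells, and most markers of these cells were also lower in DKI at 72 h, without passing in edgeR. Lyn, a Src family kinase of B and myeloid cells, had 1.72, 1.41 and 1.02 CPM in DKI libraries, against 7.11 and 5.24 CPM in CD28 KO libraries. Lat2, an adaptor of the same cells, had 1.32, 1.32 and 0.648 CPM in DKI libraries, against 5.68 and 6.84 CPM in CD28 KO libraries. H2-Ob, which modulates peptide loading of MHC class II in B cells, had 4.97, 5.84 and 4.16 CPM in DKI libraries, against 15.3 and 14.2 CPM in CD28 KO libraries. All 15 B cell markers had negative log2 fold changes, at a median of -1.29, with 0 called by edgeR, DESeq2 or limma-voom and 5 at an unadjusted p under 0.05 in edgeR. Their sum was 22.5, 23.7 and 29.6 CPM in DKI libraries, against 78.9 and 36.3 CPM in CD28 KO libraries and 38.4 and 39.3 CPM in WT libraries, so CD28 KO number 1 stood apart from number 2. Between 2 and 3 of the B cell markers were at 0 in each DKI library and 0 in each CD28 KO library. The DKI libraries held fewer counts, so these zeros are not comparable between the genotypes. With the depth batch as a term the median was -0.55 with 3 of 15 positive, and without CD28 KO number 1 it was -0.41 with 5 of 15 positive. At 24 h 9 of the 15 B cell markers were called lower in DKI, at a median of -2.70, where 2.76% of all tested genes were called lower. Their sum at 24 h was 29.3, 27.2 and 21.9 CPM in DKI libraries, against 173 and 129 CPM in CD28 KO libraries. Lyn, Lat2 and H2-Ob were lost without CD28 KO number 1 and without number 2 (adjusted p from 0.11 to 0.26 without number 2), and kept their calls under 6 of 14 alternatives each.

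Klrb1f, an NK receptor gene, had 0.608, 0.565 and 0.555 CPM in DKI libraries, against 1.94 and 2.66 CPM in CD28 KO libraries and was called lower (edgeR adjusted p = 0.0076), though not without CD28 KO number 2 (adjusted p = 0.20). The 15 NK and gamma-delta T cell markers summed to 71.7, 76.0 and 72.6 CPM in DKI libraries, against 171 and 176 CPM in CD28 KO libraries and 38.4 and 25.1 CPM in WT libraries. Of these markers 13 of 15 had negative log2 fold changes, at a median of -0.73. None passed in edgeR, where 6 had an unadjusted p under 0.05, 0 passed by limma-voom and 3, all lower, by DESeq2. Klrb1c, which encodes NK1.1, had 3.34, 3.96 and 3.05 CPM in DKI libraries, against 13.9 and 15.6 CPM in CD28 KO libraries, and Trdc, the constant segment of the delta chain, 15.2, 16.5 and 17.3 CPM in DKI libraries, against 35.1 and 30.1 CPM in CD28 KO libraries (edgeR adjusted p = 0.066 for both). The 18 myeloid markers summed to between 7.76 and 8.67 CPM in DKI libraries, against 15.5 and 20.6 CPM in CD28 KO libraries. Of them 8 to 9 were at 0 in DKI libraries and 2 to 5 in CD28 KO libraries, again at unequal depth. Stromal markers summed to between 88.3 and 95.3 CPM in DKI libraries, against 83.2 and 99.0 CPM in CD28 KO libraries. At 24 h 11 of the 15 NK and gamma-delta T cell markers had positive log2 fold changes, with 0 called. The part of these cells in the differences was not tested.

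Genes of growth and division leaned one way without passing. All 28 tested DNA replication genes, all 28 mitosis genes, all 29 ribosome biogenesis genes, all 21 glycolysis genes and 31 of 32 respiratory chain genes had a positive log2 fold change at 72 h, where 47.6% of all tested genes did. Without CD28 KO number 2 the positive values were 27 of 28 for replication, 27 of 28 for mitosis and 19 of 21 for glycolysis. Their medians were small, 0.28 for replication, 0.28 for mitosis, 0.25 for ribosome biogenesis, 0.33 for glycolysis and 0.24 for the respiratory chain, against -0.01 over all genes, and 0 members of the 5 lists were called by edgeR or limma-voom and 1, of the respiratory chain, by DESeq2. At an unadjusted p under 0.05 there were 1, 2, 0, 1 and 9 members in the same order of lists. Mcm6, a subunit of the replicative helicase, had 454, 444 and 443 CPM in DKI libraries, against 294 and 288 CPM in CD28 KO libraries and 453 and 310 CPM in WT libraries (log2 fold change 0.62, edgeR adjusted p = 0.27). Top2a, the topoisomerase of dividing cells, had 1495, 1525 and 1528 CPM in DKI libraries, against 1122 and 991 CPM in CD28 KO libraries. Ldha, which makes lactate, had 1009, 942 and 925 CPM in DKI libraries, against 689 and 594 CPM in CD28 KO libraries and 1325 and 623 CPM in WT libraries. For these 3 genes DKI and CD28 KO did not overlap. They were named for a small p in their lists, and the share of all tested genes without overlap was not counted. The lack of overlap is therefore no separate support. For Ldha the 2 WT libraries differed from each other by more than the genotypes did.

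The calls in these lists differed between fits. With the 5 libraries alone, a fit that also tests fewer genes, 19 of 28 replication genes, 14 of 28 mitosis genes, 17 of 29 ribosome biogenesis genes, 13 of 21 glycolysis genes and 15 of 32 respiratory chain genes were called higher, where 12.8% of all genes were called in either direction. With the depth batch as a term 0 were called, and the medians were 0.86, 1.02, 0.68, 0.98 and 0.48 in the same order. Cholesterol and fatty acid synthesis genes had 25 of 26 positive values at a median of 0.23 (0.61 with the depth batch as a term), with 0 called by edgeR, DESeq2 or limma-voom and 3 at an unadjusted p under 0.05 in edgeR. Dhcr7, a late enzyme of cholesterol synthesis, had the smallest p of them, with 41.0, 38.2 and 40.5 CPM in DKI libraries, against 28.3 and 26.1 CPM in CD28 KO libraries. In the list of ATF4 targets and amino acid metabolism 20 of 25 values were positive, at a median of 0.25 (0.56 with the depth batch as a term), and 1 gene, Slc7a11, was called, lower in DKI. Slc7a11 was 1 of 5 members with a negative value.

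**Figure D3:**
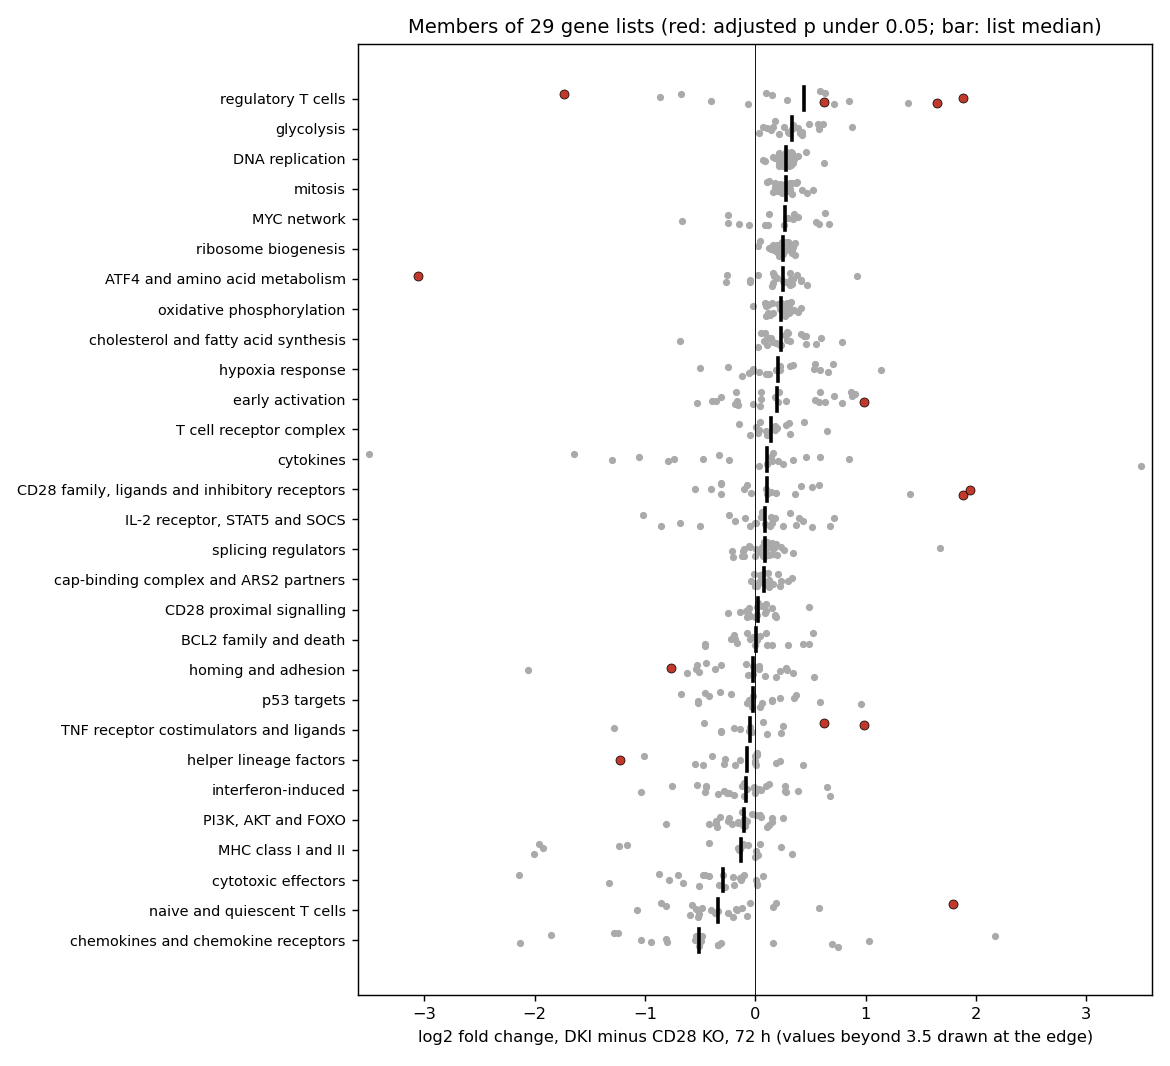
Log2 fold change (DKI minus CD28 KO, 72 h) of the tested members of 29 gene lists, ordered by list median, with called genes in red and a bar at each median. The 5 lists of growth and division sit close together right of 0 with no called member, and where other lists hold called genes there are 1 or 2, and 4 in the regulatory T cell list.

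Early activation genes were mixed. Of 26 tested, 1 was called (Tnfrsf4, higher) and 17 had positive values. Egr1, an immediate early factor, had 42.6, 47.9 and 41.8 CPM in DKI libraries, against 26.8 and 20.4 CPM in CD28 KO libraries (edgeR adjusted p = 0.099). Il2ra, the alpha chain of the IL-2 receptor, had 726, 702 and 750 CPM in DKI libraries, against 487 and 400 CPM in CD28 KO libraries and 648 and 403 CPM in WT libraries (edgeR adjusted p = 0.20). Myc had 214, 213 and 212 CPM in DKI libraries, against 141 and 134 CPM in CD28 KO libraries (edgeR adjusted p = 0.31). In each of the 3 the DKI libraries lay above both CD28 KO libraries without passing. The 3 genes were named for a small p in their lists, so their separation is no further evidence. Of 21 cytokine genes 0 were called by edgeR, DESeq2 or limma-voom, with 2 at an unadjusted p under 0.05 in edgeR.

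Lists of naive, cytotoxic and chemokine genes leaned the other way. Of 23 tested genes of naive and quiescent T cells 19 had negative values, at a median of -0.34, and the single call ran against them (Igfbp4, higher). Il7r, the IL-7 receptor, had 76.0, 84.3 and 92.8 CPM in DKI libraries, against 109 and 198 CPM in CD28 KO libraries and 116 and 227 CPM in WT libraries, and Pik3ip1, an inhibitor of PI3K, had 46.6, 52.4 and 49.8 CPM in DKI libraries, against 72.7 and 101 CPM in CD28 KO libraries. The 2 CD28 KO libraries differed by more from each other than number 1 did from DKI for Il7r. Of 23 cytotoxic effector genes 19 had negative values, at a median of -0.29 with 0 called by the same 3 tools and 2 at an unadjusted p under 0.05. Zeb2, a factor of terminal effector cells, had 2.94, 1.88 and 2.04 CPM in DKI libraries, against 5.86 and 5.61 CPM in CD28 KO libraries. Chemokines and their receptors had 5 positive values of 21, at a median of -0.51, with 0 called by edgeR or limma-voom, 1, higher, by DESeq2, and 6 at an unadjusted p under 0.05 in edgeR. Xcl1, a chemokine of activated CD8 and NK cells, had 6.28, 6.69 and 7.12 CPM in DKI libraries, against 19.5 and 29 CPM in CD28 KO libraries, and Ccl5 had 7.90, 6.4 and 6.01 CPM in DKI libraries, against 14.4 and 18.5 CPM in CD28 KO libraries. NK and gamma-delta markers, given above, were also higher in CD28 KO, and their part in these lists was not tested. With the 5 libraries alone 12 of 23 naive, 8 of 22 cytotoxic and 11 of 17 chemokine genes were called lower, where 884 of all 13814 genes were, and 1 naive and 1 chemokine gene were called higher. With the depth batch as a term the median was -0.70 for naive and -0.93 for chemokine genes; without CD28 KO number 2 it was -0.20 for naive and -0.48 for cytotoxic genes, and a sex term gave -0.19 for cytotoxic genes.

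At 24 h the same genotypes differed in more genes. Of 18292 genes 1657 (9.06%) were called, 1153 (6.3%) higher and 504 (2.76%) lower in DKI, and 51.2% of all tested genes had a positive value. Of the 83 genes called at 72 h, 44 (53%) were called at 24 h too, 43 of them in the same direction, which is 2.66% of the 24 h calls, and 76 of the 83 had the same sign. The libraries of the 2 times are separate. The 24 h calls had a median absolute log2 fold change of 0.68 at 24 h, against 0.24 for the same genes at 72 h; they were chosen by their 24 h values, so a smaller value at 72 h is built in to some degree. On chromosome 1, 20 of the 28 genes called at 72 h were called in the same direction at 24 h, Ctse with a log2 fold change of -4.90 and Rnpep with 2.15 among them. Of the other 55 genes 23 were, and 1, Esd, was called in the opposite direction.

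**Figure D4:**
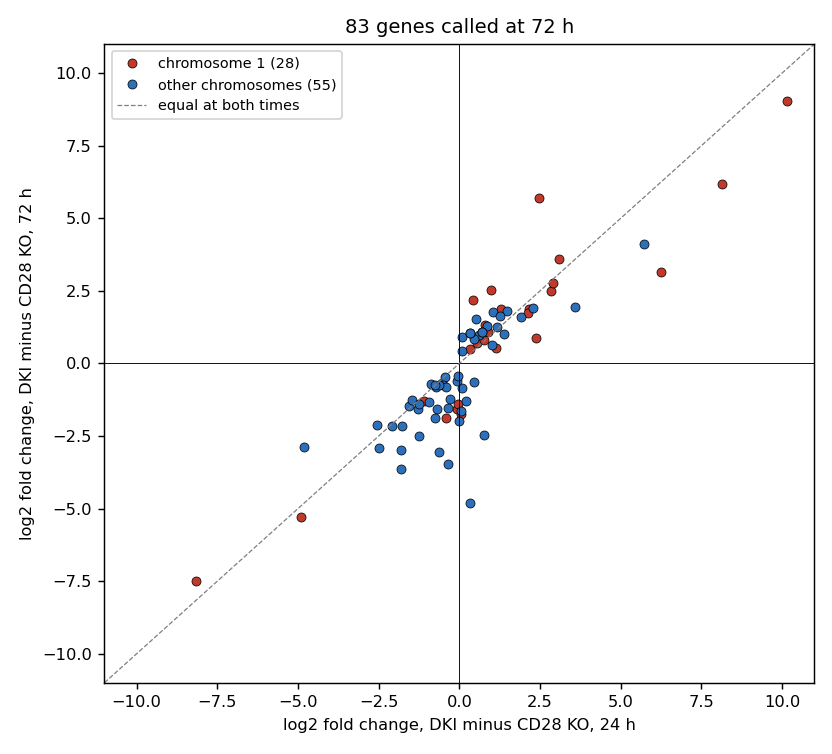
Log2 fold change (DKI minus CD28 KO) at 72 h against that at 24 h for the 83 genes called at 72 h, 28 on chromosome 1 in red and 55 elsewhere in blue. 76 of the 83 share their sign at both times.

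Slc7a11 and Srxn1 were low at 24 h in both genotypes. Slc7a11 held 0.618, 0.448 and 0.778 CPM in DKI libraries, against 0.978 and 0.930 CPM in CD28 KO libraries, and Srxn1 1.5, 1.12 and 1.33 CPM in DKI libraries, against 1.15 and 1.42 CPM in CD28 KO libraries. The test of 72 h against 24 h did not pass for either (edgeR adjusted p = 0.71 for Slc7a11 and 0.44 for Srxn1). Lag3 held 46.3, 48.9 and 50.7 CPM in DKI libraries at 24 h, against 4.31 and 3.87 CPM in CD28 KO libraries, a log2 fold change of 3.57 (edgeR adjusted p = 5.5e-06), and Icos was called higher in DKI at 24 h (log2 fold change 0.94, edgeR adjusted p = 1.2e-04).

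The difference between the genotypes at 72 h was tested against that at 24 h directly. It passed for 35 genes (0.191%), negative for 32 (0.175%) and positive for 3 (0.0164%), where 7.15% of genes had an unadjusted p under 0.05 and 40.7% a positive value, and 30 of the 32 negative ones were called higher in DKI at 24 h. Irf4, a transcription factor induced by antigen receptor signals, had the largest negative value by the rule for named genes. It held 537, 532 and 569 CPM in DKI libraries, against 64.7 and 48.4 CPM in CD28 KO libraries at 24 h, and 139, 141 and 133 CPM in DKI libraries, against 89.1 and 62.1 CPM in CD28 KO libraries at 72 h. DKI libraries lay above CD28 KO libraries at both times, by less at 72 h. The change in log2 fold change was -2.41 (SE 0.34, edgeR adjusted p = 0.0034), and Irf4 was the 1 gene of the 35 still called without CD28 KO number 1 of 24 h. Without CD28 KO number 1 of 72 h, 4 were, namely Irf4, Gbp2, Chst2 and Gbp4. Acadl, on chromosome 1, held 36.9, 33.4 and 31.9 CPM in DKI libraries, against 5.64 and 7.44 CPM in CD28 KO libraries at 24 h, and was still higher in DKI at 72 h, as given above. Wdfy1 did the opposite, since its difference was not called at 24 h (log2 fold change -0.41) and was called at 72 h.

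Interferon-induced genes were among these. Of 28 on the list, 7 were called higher in DKI at 24 h, where 6.3% of all tested genes were. At 72 h 0 were called by edgeR, DESeq2 or limma-voom (3 at an unadjusted p under 0.05 in edgeR). A called change between the times was found for 4, all negative, with Gbp2, Gbp4 and Igtp among them. Other lists changed too. Of 28 DNA replication genes 21 were called higher in DKI at 24 h, and all 28 changes were negative, with 0 called. Of 28 mitosis genes 0 were called higher at 24 h, and 15 changes were negative. Gbp2, a guanylate-binding protein, held 424, 275 and 561 CPM in DKI libraries, against 83.9 and 120 CPM in CD28 KO libraries at 24 h. At 72 h it held 556, 605 and 563 CPM in DKI libraries, against 522 and 533 CPM in CD28 KO libraries. Its 24 h difference of 2.04 on the log2 scale was 0.12 at 72 h, a change of -1.92 (SE 0.31, edgeR adjusted p = 0.0070). Igtp, an interferon-induced GTPase, held 449, 366 and 539 CPM in DKI libraries, against 168 and 240 CPM in CD28 KO libraries at 24 h, and 596, 643 and 601 CPM in DKI libraries, against 595 and 593 CPM in CD28 KO libraries at 72 h, a change of -1.10 (SE 0.19, edgeR adjusted p = 0.0070). At 72 h both genes in CD28 KO lay just under DKI. DKI number 2 was the lowest of the DKI libraries at 24 h for both.

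Gbp4 differed in sign between the times. It held 712, 542 and 857 CPM in DKI libraries, against 321 and 421 CPM in CD28 KO libraries at 24 h, and 812, 821 and 863 CPM in DKI libraries, against 1111 and 1162 CPM in CD28 KO libraries at 72 h, where the difference did not pass (log2 fold change -0.45, edgeR adjusted p = 0.23). Cd274, the gene of PD-L1, did the same, with 116, 83.6 and 148 CPM in DKI libraries, against 43.5 and 52.4 CPM in CD28 KO libraries at 24 h, and 73.5, 79.7 and 75.3 CPM in DKI libraries, against 103 and 98.0 CPM in CD28 KO libraries at 72 h. Gbp5, Gbp6, Ifi47 and Iigp1, which belong to the same families of interferon-induced GTPases and were picked out after their values were seen, were also among the 32, and 64.5% of the 100-base stretches of Gbp6 are shared with other genes. Ifng, the gene of interferon gamma, held 13.9, 13.9 and 16.2 CPM in DKI libraries, against 22.2 and 14.7 CPM in CD28 KO libraries at 72 h, and its change between the times was not called. The 3 positive genes were Pxylp1, Myo10 and Flot2, which were lower in DKI at 24 h and not called at 72 h.

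**Figure D5:**
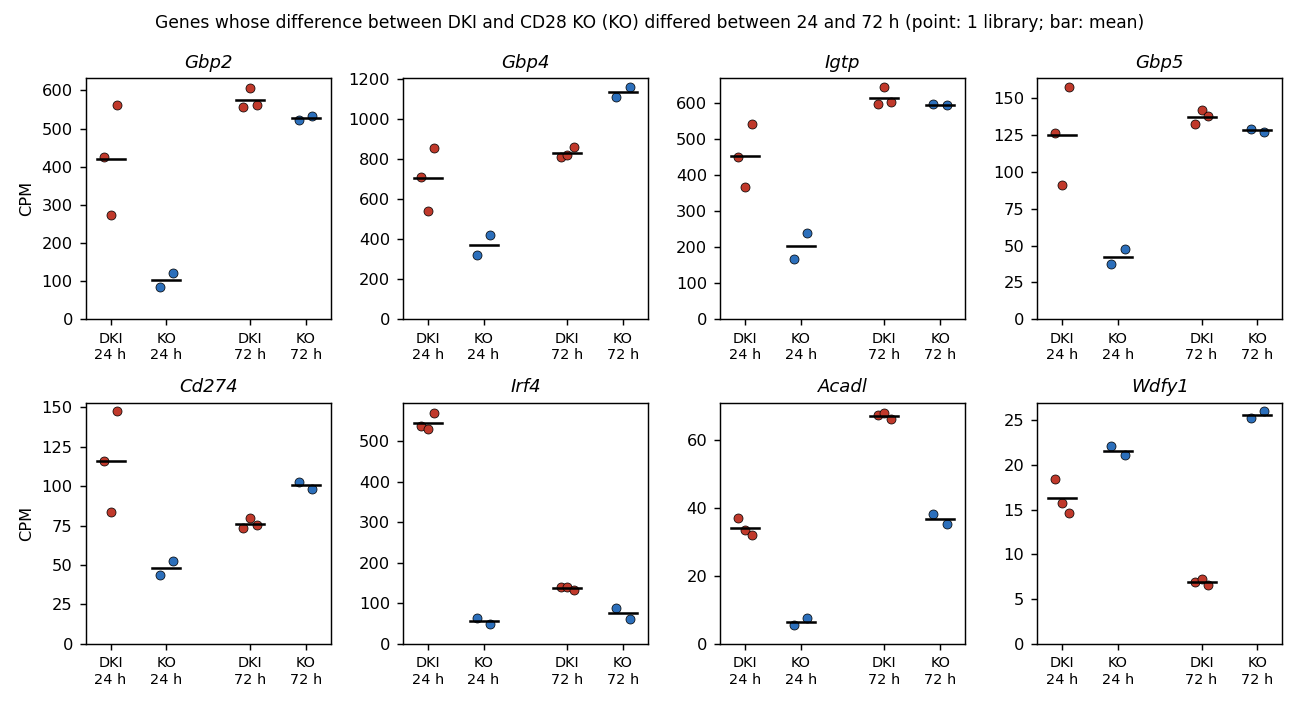
CPM of 8 genes in DKI and CD28 KO (KO) libraries at 24 h and 72 h, each point 1 library and each bar a group mean. Gbp2, Igtp and Gbp5 are higher in DKI at 24 h and close to CD28 KO at 72 h, Gbp4 and Cd274 lie below CD28 KO at 72 h, and the ratio of DKI to CD28 KO is smaller at 72 h for Irf4 and Acadl.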

How the data were processed

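Splenic T cells were profiled by rRNA-depleted RNA-seq with a kit that marks strand, per the labels' protocols. The authors deposited RSEM expected counts per gene, which are not whole numbers for every gene (83.7 to 90.8% of values were whole per library). The submitters' processing notes name STAR, RSEM and limma, with mm10 and GRCm38 as builds; the strand setting is not given in the sources used here. Expected counts were rounded. Names and positions came from GENCODE M21.

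The fit was edgeR 4.0.16 (R 4.3.3), quasi-likelihood, on all 34 libraries in 13 groups, which share 1 estimate of the spread, with TMM scaling and edgeR's default filter on low counts. It left 18292 genes, and p-values were adjusted over all of them by the Benjamini-Hochberg method at 0.05. CPM are counts relative to the TMM-scaled library total; marker sums are not TMM-scaled. CD28 KO libraries of 72 h are numbered by column, since their titles carry other numbers, and were matched by group. Alternatives used DESeq2 1.42.0, limma-voom (limma 3.58.1), other scaling, filters, terms and sets of libraries. The fit was also run on simulated counts, drawn with the spread it had estimated from these libraries. The simulated counts held no depth batch, so they cannot speak to that limit. Where no source says that replicates came from separate mice, p-values measure the spread between these samples.

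Named genes were Cd28, Ctla4, Icos, Srrt and Pkm, and the called genes of chromosome 1 and of the lists. Up to 5 members of each list with the smallest p at 72 h could be named. Also named were the called genes with the largest change at a mean log2 CPM of at least 3 (up to 12 per direction). These also had to have CPM that did not overlap between DKI and CD28 KO at 72 h. The leading genes of the test between times (up to 4 per direction) were named without that condition. Others were chosen after their values were seen. The comparison and the gene lists were chosen with earlier results of these data known.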

Additional observations from a re-analysis of the deposited data

Results flagged for a closer look

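The difference between DKI and CD28 KO changed between 24 h and 72 h, by edgeR's test of that change with Benjamini-Hochberg adjustment, for the following genes named here. Values are the log2 fold change at 72 h minus that at 24 h, so a negative value means that DKI stood lower against CD28 KO at 72 h than at 24 h.

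Among genes of interferon responses the change was -1.92 for Gbp2, -1.37 for Gbp4, -1.46 for Gbp5, -1.38 for Gbp6, -1.10 for Igtp, -0.852 for Ifi47 and -2.31 for Iigp1. Among genes of T cell activation and surface receptors it was -2.41 for Irf4, -1.67 for Cd274, -2.00 for Il12rb2 and -1.54 for Ly6a. It was -2.39 for Chst2 and -2.11 for Anxa2. Of genes also called at 72 h, it was -1.50 for Acadl, -1.48 for Wdfy1 and -1.06 for Esd, which was higher in DKI at 24 h and lower at 72 h. The positive changes were 1.19 for Pxylp1, 1.10 for Myo10 and 0.755 for Flot2.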

How the results depend on the processing

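The 83 calls at 72 h became 255 with DESeq2, 50 with limma-voom, 268 with no filter on low counts, 30 with the depth batch as a term, 1765 with only the 5 libraries compared, and 16 with only the libraries of day 3. Leaving out single libraries gave 15 (without CD28 KO number 2) to 49 (without DKI number 3). DESeq2's median-ratio scaling in edgeR gave 84, a sex term gave 82, and a fit of protein-coding genes gave 73. At 24 h limma-voom gave 1012 calls against 1657. The test of 72 h against 24 h gave 35 calls, and 85 with DESeq2, 23 with median-ratio scaling, 19 with limma-voom and 81 with no filter; leaving out single libraries gave 1 to 30. Why these counts moved was not tested, beyond the number of libraries and genes that each fit holds. Srrt changed sign, to 0.0184 with DESeq2 and 0.0184 with median-ratio scaling, 0.829 with the depth batch, 0.00879 with day 3 alone and 0.0240 with sex as a term, and ranged from -0.0546 to 0.0542 without single libraries. Gsr (0.229) and Txnrd1 (0.279) changed sign with the depth batch as a term.

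At 24 h, with those libraries alone, the fit with a replicate block gave 3333 calls and the fit with no replicate block 4381. Deviations of same-numbered libraries correlated at 0.0065 and -0.066. The deviations of 2 CD28 KO libraries mirror each other, so these values cannot decide whether the numbers pair the samples. No paired analysis was possible because, at 72 h, the numbers of the CD28 KO columns and titles differ. All DKI libraries are among the 8 libraries under 12 M counts, and 2 CD28 KO libraries limit every comparison.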
